A study of Klebsormidium nitens with 4 samples.

Results

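The genes described here encode the enzymes of the water–water cycle and a flavodiiron protein in *Klebsormidium nitens*, a filamentous charophyte alga. They were chosen as the 4 genes to which the text of the study gives these roles, out of 17290 genes with values: superoxide dismutase (SOD, kfl00631_0030), ascorbate peroxidase (APX, kfl00460_0010), monodehydroascorbate reductase (MDAR, kfl00196_0050) and flavodiiron protein (Flv, kfl00041_0060). The names rest on the study alone. Each enzyme is represented by 1 gene, and other genes that may encode the same activities were not analysed here.

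The tested cultures of strain NIES-2285 received 1500 µE m-2 s-1 for 3 h (high light), and the control cultures stayed at 50 µE m-2 s-1 (low light), with 2 independent cultures in each condition. All cultures grew at 20 °C in continuous white light, in a mineral medium aerated with 1% CO2. Polyadenylated RNA was sequenced, and each value is in FPKM, a fragment density that corrects for exon length and for how many reads were mapped. FPKM give the share of a transcript in the RNA of a culture, so less RNA of all kinds per cell and fewer cells cannot be told apart from these values.

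In the water–water cycle, electrons that leave photosystem I (PSI) for molecular oxygen form superoxide. SOD converts superoxide to hydrogen peroxide, APX reduces the peroxide to water with ascorbate as the donor, and MDAR returns the oxidized ascorbate radical to ascorbate with NADPH or NADH. Flavodiiron proteins pass electrons from the acceptor side of PSI to oxygen and form water without releasing superoxide or peroxide; they are known from cyanobacteria, green algae, mosses and gymnosperms and are missing in flowering plants. The question behind the comparison was whether these oxygen-consuming routes respond at the transcript level when light exceeds what photosynthesis can use.

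On the reference assembly ASM70883v1 the genes lie on 4 different scaffolds. SOD spans 8574 to 13428 of scaffold kfl00631, APX 1371 to 5507 of kfl00460, MDAR 49708 to 57824 of kfl00196 and Flv 39282 to 49342 of kfl00041, introns included. The study used version 1.0 of the genome, named by the accession of a scaffold that this assembly also holds.

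Between libraries, the FPKM summed to 620285 and 620013 in high light and to 660467 and 657079 in low light. Among the 10557 genes with a value above 0 in every library, the median was 14.4 and 14.8 FPKM in high light, against 17.2 and 16.6 in low light. Their median log2 fold change was therefore -0.22 before normalization, and in 78.9% of them the ranges of high light and low light did not overlap. For the test, log2(FPKM + 1) was quantile normalized and compared in limma over all genes. A gene counts as activated if its log2 fold change reached 1, and as repressed if it reached -1, with an adjusted p below 0.05 in either case. No member met both thresholds, where 7.51% of all genes did (4.00% activated and 3.51% repressed, or 691 and 607 genes, and 515 and 876 genes without normalization). SOD alone had an adjusted p below 0.05, which 13.4% of all genes had. Among the 184 genes whose mean FPKM lay within a factor of 1.5 of that of SOD, 50.5% had it.

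SOD, the entry enzyme of the cycle, was the most abundant of the 4 transcripts and the one that rose. Its FPKM was 420 and 445 in the high light libraries, against 288 and 279 in the low light libraries. The conditions did not overlap, and the gap between them was several times the gap between replicates. Mean FPKM was 433 ± 17.2 in high light and 283 ± 6.97 in low light (SD, n = 2 each), a ratio of 1.53. On the quantile-normalized log2 scale the change of SOD was 0.50 (standard error 0.05, 95% interval 0.31 to 0.69, Benjamini-Hochberg adjusted p = 0.047 in limma), below the threshold of 1 set for activation. The limma adjusted p lay between 0.119 and 0.223 with each of the 4 libraries left out in turn, while the log2 fold change stayed between 0.46 and 0.56. When each library was scaled to its median FPKM, SOD changed by 0.82 on the log2 scale (limma adjusted p = 0.0134).

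APX, the peroxidase that acts after SOD, was the least abundant of the 4 and nearly level. Its FPKM was 18.5 and 20.4 in high light, against 18.1 and 18.5 in low light. The lower high light library was barely above the higher low light library. Mean FPKM of APX was 19.5 ± 1.35 in high light and 18.3 ± 0.298 in low light (SD, n = 2 each), a ratio of 1.06. After quantile normalization the log2 fold change of APX was 0.25 (standard error 0.06, 95% interval 0.04 to 0.46), with an adjusted p of 0.123 from limma, so no change was called. Without normalization it was 0.08, with a limma adjusted p of 0.575. The upper bound of the interval lies below the threshold for activation.

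MDAR, which recycles the ascorbate radical made by APX, did not separate the conditions. Its FPKM was 116 and 108 in high light, against 118 and 111 in low light, so the libraries of both conditions interleaved. The means of MDAR were 112 ± 5.24 FPKM in high light and 114 ± 4.31 FPKM in low light (SD, n = 2 each), a ratio of 0.978. The log2 fold change of -0.08 (95% interval -0.27 to 0.11) came with a limma adjusted p of 0.468. Its sign depended on the scaling, being negative with quantile normalization and without normalization, but positive with median scaling (0.18), cyclic loess (0.02) and scaling to the same FPKM sum (0.05), the last added with the values known.

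Flv, the flavodiiron gene that bypasses superoxide, had the lowest ratio of the 4. Its FPKM was 50.4 and 59.8 in high light, against 78.4 and 74.4 in low light. Both high light libraries lay below both low light libraries, but they were also farther apart from each other than those of low light. Mean FPKM of Flv was 55.1 ± 6.65 in high light and 76.4 ± 2.80 in low light (SD, n = 2 each), a ratio of 0.722. The log2 fold change was -0.43 (standard error 0.10, 95% interval -0.80 to -0.06), and with an adjusted p of 0.128 from limma the lower level was not called. With median scaling it was -0.26, at a limma adjusted p of 0.247, and over all settings the limma adjusted p of Flv ranged from 0.0623 to 0.414.

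**Figure D1:**
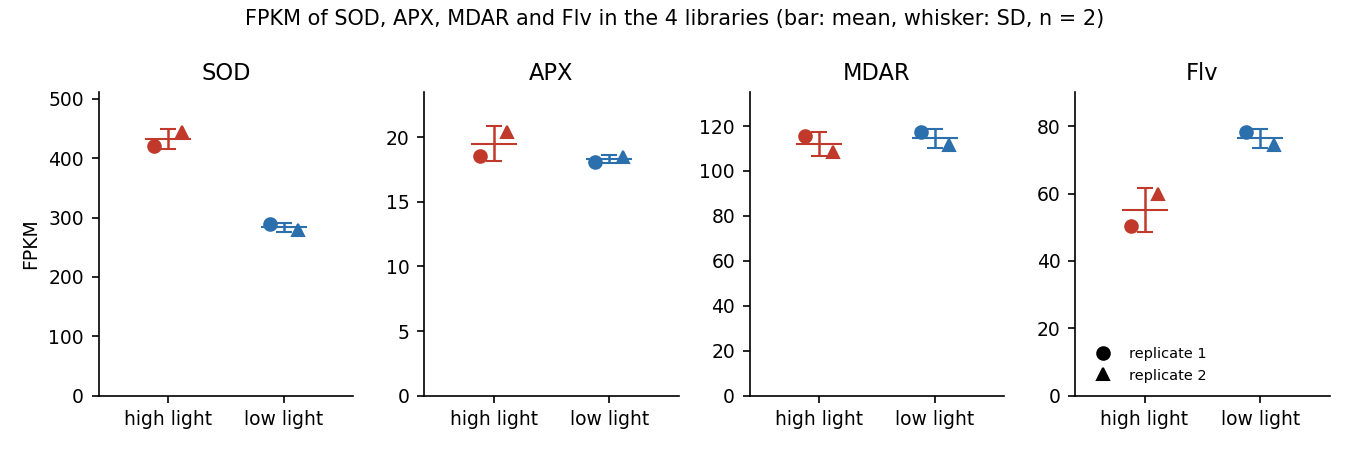
FPKM (vertical axis, from 0) of SOD, APX, MDAR and Flv in high light and low light, with circles for replicate 1, triangles for replicate 2, bars for means and whiskers for SD (n = 2 each). SOD lies at 420 and 445 in high light, against 288 and 279 in low light, Flv lies lower in high light, MDAR interleaves and APX stays between 18.1 and 20.4.

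The level of each gene among its own library's genes shows the same order in all 4 libraries, which was SOD, MDAR, Flv and APX, and in no library did neighbouring genes in this order come within the gap between replicates. FPKM are scaled to transcript length, so these levels can be compared between genes. Of the 11096 to 11321 genes above 0 in a library, 217 and 208 stood above SOD in high light, against 280 and 287 in low light. For Flv these counts were 2079 and 1794 in high light, against 1412 and 1426 in low light. MDAR had 905 and 971 genes above it in high light, against 865 and 900 in low light. APX had 4544 and 4329 genes above it in high light, against 5096 and 4928 in low light, so that it moved up in rank although its FPKM was nearly level.

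Ratios between members within a library do not change when a library is multiplied by a factor, though quantile normalization alters them. SOD made up 69.5% and 70.2% of the summed FPKM of the 4 genes in high light, against 57.4% and 57.7% in low light. The share of Flv was 8.34% and 9.45% in high light, against 15.6% and 15.4% in low light. MDAR held 19.1% and 17.1% in high light, against 23.4% and 23.1% in low light. APX had the smallest share, 3.06% and 3.22% in high light, against 3.597% and 3.829% in low light. The transcript pool of the 4 genes was thus weighted more to SOD in high light. No share overlapped between conditions, but neither did 78.9% of single genes above 0 in every library. The shares add up to the whole, so a higher share of SOD lowers the others. The FPKM of MDAR itself overlapped, and that of APX was slightly higher in high light.

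SOD over APX, the superoxide-to-peroxide step against the peroxide-to-water step, was 22.7 and 21.8 in the high light libraries, against 15.96 and 15.1 in the low light libraries. The log2 ratio of SOD over APX was 0.52 higher in high light, where the replicates differed by 0.06 in high light and 0.08 in low light, and 0.25 higher in quantile-normalized values. SOD over MDAR was 3.63 and 4.11 in high light, against 2.45 and 2.50 in low light, a log2 difference of 0.64. The largest shift among the 6 pairs was that of SOD over Flv, at 8.33 and 7.43 in high light, against 3.68 and 3.74 in low light, a log2 difference of 1.09.

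Flv over APX was 2.73 and 2.93 in high light, against 4.34 and 4.03 in low light, and its log2 ratio differed by -0.56. MDAR over Flv was 2.29 and 1.81 in high light, against 1.499 and 1.497 in low light, so its replicates differed by 0.34 on the log2 scale in high light for a difference of 0.44 between conditions, and that difference was 0.27 without high light replicate 1. Only MDAR over APX overlapped, with 6.25 and 5.30 in high light, against 6.50 and 6.03 in low light. Its log2 difference was -0.12, or -0.33 in quantile-normalized values. With high light replicate 1 left out it was -0.24, and -0.0021 if replicate 2 of high light was dropped instead. The other 5 pairs separated the conditions, which 78.9% of single genes also did, so the count is near that background. The pairs share members and are not independent, and their ratios are given as a description without a test.

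**Figure D2:**
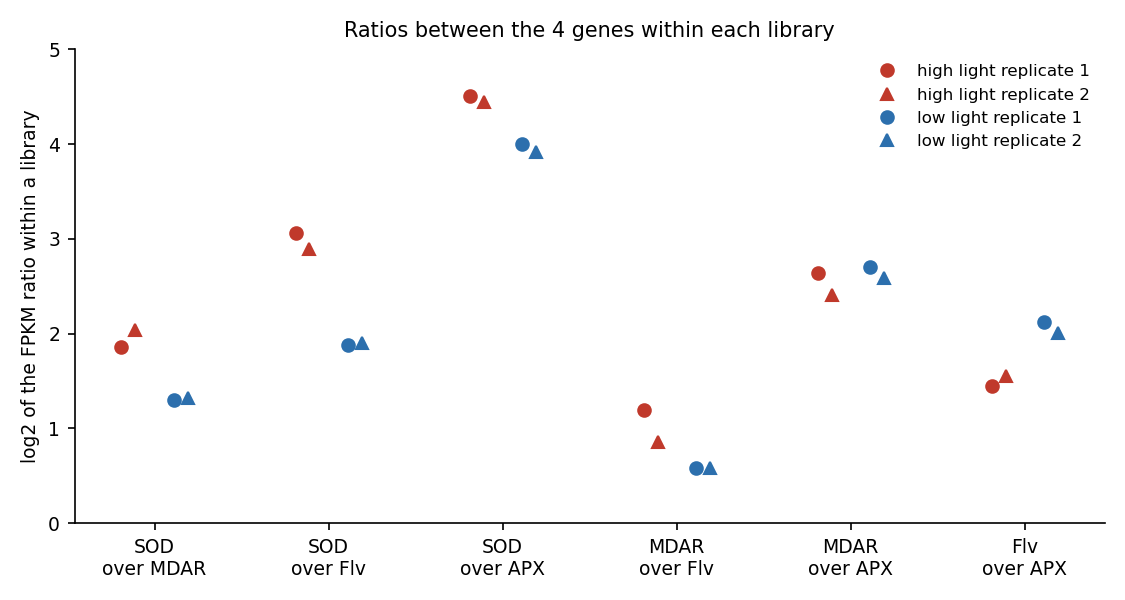
Log2 of the FPKM ratio (vertical axis) of each pair of the 4 genes within each library, high light in red left of low light in blue, with circles for replicate 1 and triangles for replicate 2. SOD over Flv shows the widest gap between conditions, a log2 difference of 1.09, and MDAR over APX is the only pair whose conditions overlap.

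Each member was then set among the genes whose mean FPKM over the 4 libraries lay within a factor of 1.5 of its own, as a description of how far genes of that abundance moved. Around SOD there were 184 such genes, with a median log2 fold change of -0.09 and a range from -1.24 at the 5th percentile to 1.84 at the 95th. The change of SOD was higher than that of 73.9% of them, yet 26.6% of these genes were called activated or repressed, which SOD was not. In absolute size its change exceeded that of 45.7% of them. On the quantile-normalized log2 scale its replicates differed by 0.11 in high light and 0.03 in low light, where the medians of these genes were 0.07 and 0.08.

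APX stood above 62.7% of the 2596 genes of like abundance, whose log2 fold changes had a median of -0.02 and ran from -1.41 to 1.37 between the same percentiles. Only 24.2% of them changed less than APX in absolute size. MDAR was close to the median of its 852 genes, above 49.3% of them, and 8.22% of these had a smaller absolute change. Among genes of its abundance MDAR thus belonged to the least changed in this scaling.

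Flv was above 30.5% of its 1359 genes of like abundance, so its lower level in high light was within the middle of a distribution that ran from -1.39 to 1.40. The absolute change of Flv exceeded that of 42.0% of them. On the same log2 scale, the difference of 0.22 between its high light replicates was larger than in 81.7% of these genes, and the difference of 0.01 between its low light replicates was larger than in 3.46%. None of the 4 members lay outside the 5th to 95th percentile of genes of like abundance.

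**Figure D3:**
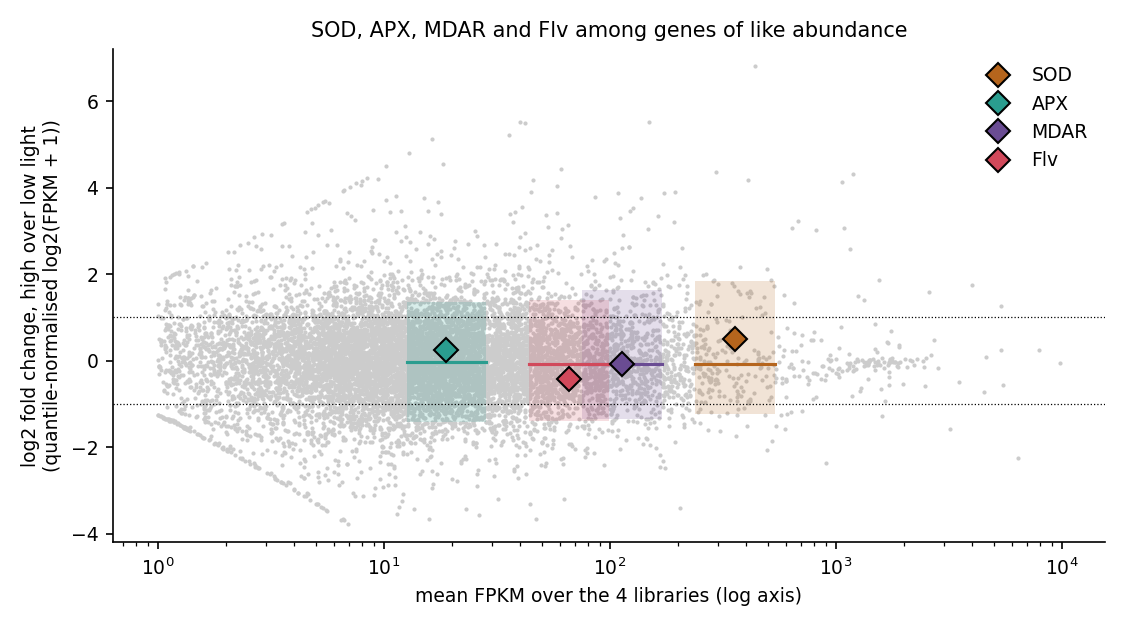
Log2 fold change of high over low light (vertical axis) against mean FPKM over the 4 libraries (horizontal log axis) for genes with a mean of at least 1 FPKM (grey), with SOD, APX, MDAR and Flv as diamonds. Shaded boxes span the 5th to 95th percentile of genes within a factor of 1.5 in abundance, coloured lines mark their medians and dotted lines the thresholds of 1 and -1; all 4 diamonds lie inside their boxes.

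A selection of 16 other genes of oxygen and electron handling that the study names, in 3 groups, is set beside the members; the study chose them on the same libraries, so their directions are not independent evidence. In the peroxide and thiol group, 5 of 6 genes were activated and none repressed, where 4.00% of all genes were activated. With a replicate block none of the 6 was called, as was true of all 17290 genes. The log2 fold changes of the 6 stayed positive with any 1 of the 4 libraries left out, though most of the calls were lost. Catalase (CAT), which splits hydrogen peroxide without a donor, had 406 and 387 FPKM in high light, against 197 and 196 in low light. In this group only CAT stayed below the threshold of 1, at a log2 fold change of 0.90 (limma adjusted p = 0.0145), and it passed without normalization (1.01), with cyclic loess (1.04), with sum scaling (1.10) and with median scaling (1.22). Of the activated genes, the peroxiredoxin Q gene kfl00014_0250 had 4.34 and 4.87 FPKM in high light but 0 is its listed value in low light (both libraries), so no fold is given for it. The log2 fold changes of the other activated genes (a further peroxiredoxin Q, 2 thioredoxin-disulfide reductases and an NADPH-dependent thioredoxin reductase) lay between 1.01 and 1.56. For the NADPH-dependent enzyme it was 0.94 without low light replicate 2 and 0.955 without high light replicate 2, below the threshold of 1. The thioredoxin-disulfide reductase gene kfl00120_0050 also fell below it, at 0.985, without low light replicate 2. The median of the 6 genes was 1.30, against 0.08 for the 4 members and 0.0035 for all genes above 0 in every library.

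Of the 2 PSI subunits and the 2 proteins that carry electrons away from PSI, the source of electrons for both the water–water cycle and Flv, 3 of 4 genes were repressed and none activated, where 3.51% of all genes were repressed. With a replicate block none of them was called, as was true of all 17290 genes. Their log2 fold changes stayed negative with any 1 library left out, though their calls did not hold in those fits. PsaD, the subunit that docks ferredoxin, had 65.1 and 64.4 FPKM in high light, against 248 and 226 in low light. Ferredoxin (Fd), the soluble carrier that receives the electrons, had a log2 fold change of -0.70, too small for a call (limma adjusted p = 0.0457). Fd was the most abundant of these genes, with 979 and 980 FPKM in high light, against 1640 and 1530 in low light. Ferredoxin-NADP reductase (FNR) had a log2 fold change of -1.39, and PsaO, a peripheral PSI subunit, of -1.74. The lower level of Flv had the direction of this group but was smaller than that of each of its genes, and was not itself called.

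Among the other electron routes, 2 of 6 genes were activated and 1 repressed, where 4.00% and 3.51% of all genes were. The log2 fold changes of the 6 kept their sign with any 1 library left out, though most of the calls were lost. With a replicate block none was called, as was true of all 17290 genes. The plastid terminal oxidase (PTOX), which, like Flv, reduces oxygen to water but takes its electrons from plastoquinone, had 315 and 357 FPKM in high light, against 89.1 and 84.7 in low light, and a log2 fold change of 1.89, with a limma adjusted p of 0.0224. PGR5, a protein needed for cyclic electron flow, had 621 and 638 FPKM in high light, against 126 and 126 in low light. PGRL1, its partner, had a log2 fold change of 0.23, and NdhM, NdhN and NdhO, subunits of the NADH dehydrogenase-like complex, had -0.35, -0.86 and -1.001, of which NdhO was called repressed at the very threshold. It lost that call with median scaling (-0.85), cyclic loess (-0.975) and sum scaling (-0.973). In low light PTOX, PGR5 and PGRL1 all lay below SOD, and in high light PGR5 stood above it.

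**Figure D4:**
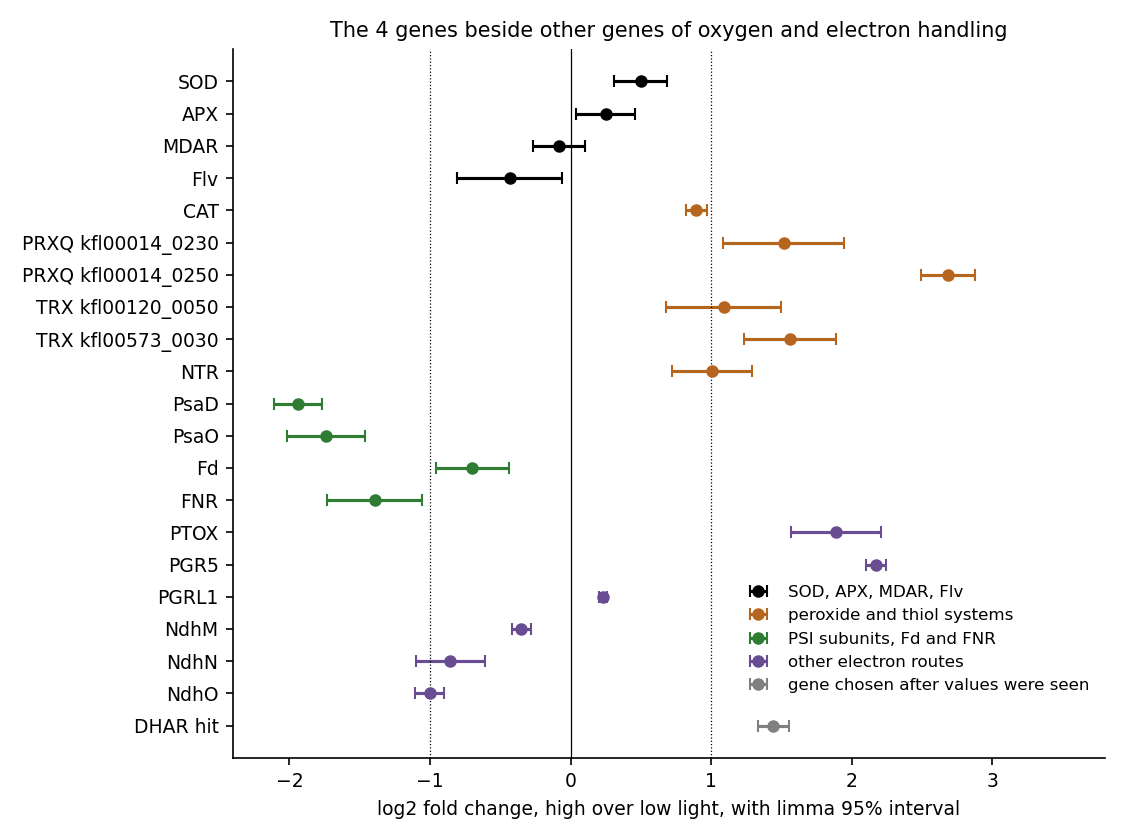
Log2 fold change of high over low light (horizontal axis) with its limma 95% interval for the 4 members (black), the 16 other genes by group (colours) and 1 gene chosen after its values were seen (grey). The members lie between -0.43 and 0.50, inside the dotted thresholds, while peroxide and thiol genes lie at 0.90 or above and the PSI subunits, Fd and FNR at -0.70 or below; the point at 2.68 is the gene listed at 0 in low light and depends on the pseudocount.

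The median log2 fold change was 1.30 in the peroxide and thiol group and -1.57 in the PSI group, whose genes the study named from these same libraries. The median of the other electron routes, at -0.06, was near the 0.08 of the members. Over the processing settings, a minimum FPKM, a variance trend and both blocks leave the log2 fold change of a member as it is by construction. In the 10 alternatives that can move it, SOD ranged from 0.46 to 0.82 and Flv from -0.54 to -0.26. APX ranged from 0.08 to 0.29, and MDAR took both signs between -0.13 and 0.18. Each member was also set against the median of genes above 0 in every library, in the same setting. SOD then stood at 0.83 without normalization and 0.85 with median scaling, against 0.50 with quantile normalization. In the same order of settings, Flv stood at -0.25 and -0.23, against -0.44, and APX at 0.30 and 0.31, against 0.25. MDAR stood at 0.19 and 0.21, against -0.08.

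**Figure D5:**
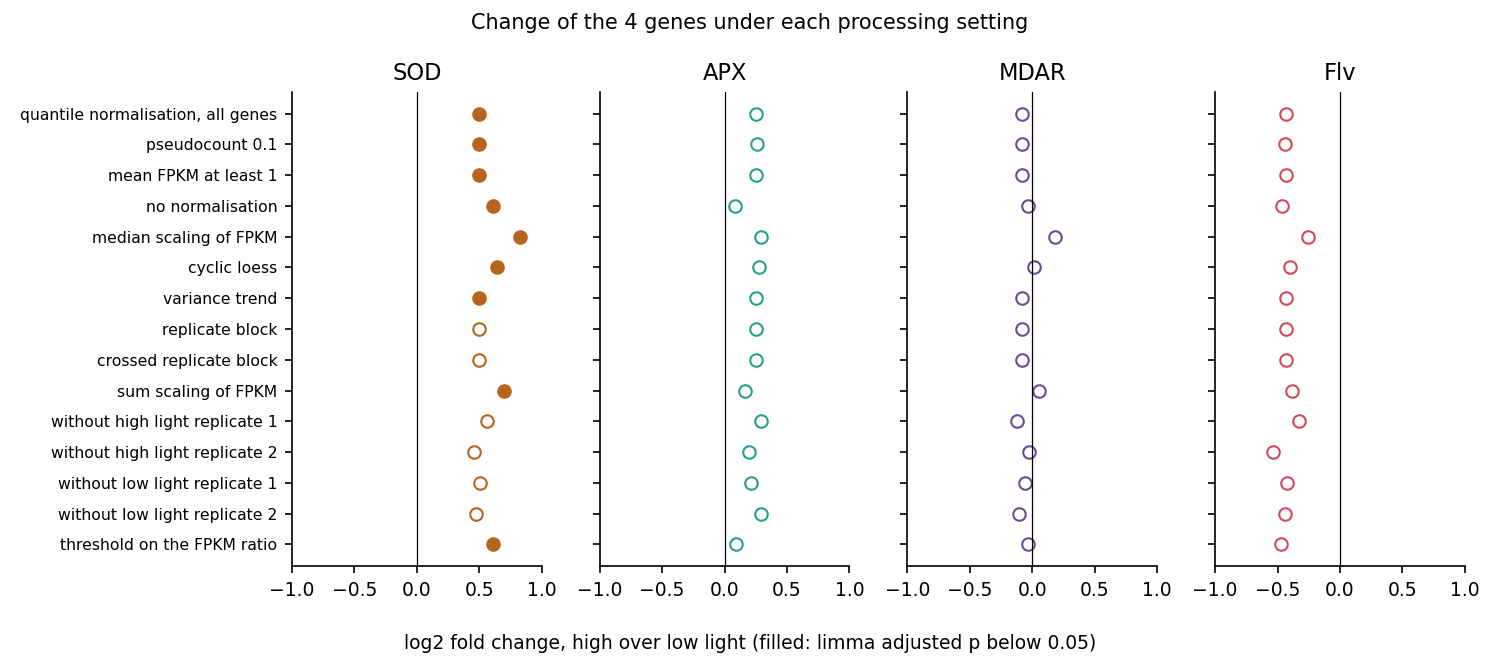
Log2 fold change of high over low light (horizontal axes) of SOD, APX, MDAR and Flv under each processing setting (rows), filled where the limma adjusted p was below 0.05. Filled points occur for SOD only, in the settings that keep all 4 libraries and use no replicate block, and the points of MDAR fall on both sides of 0.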

How the data were processed

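RNA-seq of 4 *K. nitens* cultures was analysed from FPKM that the authors made by running their pipeline MARACAS (FastQC, HISAT2, StringTie) against genome version 1.0; tool versions are not given in the sources used here. The deposited FPKM are per library, with replicates kept separate and no quantile normalization. Per the labels, each library had about 17000000 reads of 50 nt. Read counts per gene were not recovered, so the replicate spread is the only error used. All columns were matched to samples by title.

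Log2(FPKM + 1) was quantile normalized and tested in limma 3.58.1 (R 4.3.3), with no variance trend, for 17290 genes, and p-values were adjusted by Benjamini-Hochberg. The step was tested on simulated data. The study gives limma, quantile normalization and both thresholds, but neither pseudocount nor filter. Ratios, ranks and genes of like abundance were computed in Python 3.11.15 with pandas 2.3.3, and figures drawn with matplotlib 3.10.9.

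Named are the 4 members, the 16 other genes, genes flanking a member by locus number (identifiers ending in g and a number left out) and the gene nearest to each member by root mean square difference of log2(FPKM + 1), at a mean FPKM of at least 1. Members, lists and tests were chosen with earlier results of these data known. Locus numbers matched the reference gene table for 16199 of 17290 features and all 4 members. Proteins were not used here, so the planned list of genes with similar proteins was not made, and no sequence is printed.

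Alternatives were a pseudocount of 0.1, a minimum mean FPKM of 1, the omission of each library, a replicate block, cyclic loess, unnormalized values, scaling to the median, a variance trend, other windows of abundance and calls by the FPKM ratio. Scaling to the same FPKM sum and a crossed block were added after the values were seen.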

Additional observations from a re-analysis of the deposited data

How the results depend on the processing

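Leaving out 1 library moved the number of called genes to between 222 and 422, from 1298 with all 4, and the SOD log2 fold change to between 0.46 and 0.56, at limma adjusted p of 0.119 to 0.223. A lone library then borrows the spread of the other condition's replicates. A minimum mean FPKM of 1 gave 2410 called genes. With the replicate block, no gene was called in limma, with 4365 genes at an unadjusted p below 0.05. SOD, at an unchanged 0.50, had a limma adjusted p of 0.177 and a standard error of 0.058, against 0.051 without the block. The block leaves fewer degrees of freedom for the error, and a replicate effect was not tested. The labels do not say whether equal replicate numbers mark cultures handled together. Replicate differences in high and low light correlated at r = -0.19 across 10557 genes, and 1 correlation cannot settle this. The crossed replicate block, chosen after seeing this, also called 0 genes in limma, with 4383 at an unadjusted p below 0.05, and gave SOD an adjusted p of 0.134 at the same 0.50. No member was called with or without a block, and the adjusted p of the other members stayed above 0.05 under either block. MDAR turned positive with median scaling (0.18), cyclic loess (0.017) and sum scaling (0.055). In quantile-normalized values the log2 change of SOD over Flv was 0.93, of SOD over APX 0.25, of MDAR over APX -0.33 and of Flv over APX -0.68; the cause was not tested. With a factor of 1.2 instead of 1.5, 45.4% of genes of like abundance lay below MDAR. APX and Flv stayed on the same side of 0 and above an adjusted p of 0.05 in all 14 alternatives. With 2 cultures per condition and no read counts per gene, the log2 fold changes of APX and Flv were not resolved from 0 at an adjusted p of 0.05.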

Other observations

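A further enzyme regenerates ascorbate from its fully oxidized form, dehydroascorbate reductase. The gene kfl00468_0110, whose best Arabidopsis hit in the annotation of the study is such an enzyme, was singled out after its values were seen, from genes the study called on these libraries. Its FPKM was 75.7 and 77.9 in high light, against 30.1 and 27.9 in low light, a log2 fold change of 1.44 (limma adjusted p = 0.0141). Per library it stood at 0.654 and 0.719 of the FPKM of MDAR in high light, against 0.256 and 0.251 in low light. The ascorbate-recycling genes in these data thus include 1 that was activated and 1, MDAR, whose conditions overlapped.

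Ratios of other named genes to the members, also chosen after the values were seen, shifted as follows. CAT over APX, both consumers of hydrogen peroxide, was 21.9 and 19.0 in high light, against 10.9 and 10.6 in low light. PTOX over Flv was 6.24 and 5.96 in high light, against 1.137 and 1.138 in low light, so that the oxygen-reducing oxidase and Flv were at nearly the same level in low light only. Fd over SOD was 2.33 and 2.20 in high light, against 5.69 and 5.49 in low light. FNR over Flv was 0.859 and 0.685 in high light, against 1.39 and 1.57 in low light, which put FNR below Flv in high light and above it in low light. All these pairs had replicates closer to each other than to the other condition. The conditions of 78.9% of single genes above 0 in every library also did not overlap, and none of these pairs was tested.

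Genes flanking the members did not all follow them. The gene after SOD, kfl00631_0040, had a ratio of 1.81 (limma adjusted p = 0.0229), and the one after MDAR, kfl00196_0060, had 32.5 and 31.4 FPKM in high light, against 62.6 and 60.02 in low light (limma adjusted p = 0.0224), next to a gene whose conditions overlapped. The gene before Flv, kfl00041_0050, had 34.5 and 37.2 FPKM in high light, against 30.4 and 29.1 in low light, opposite in direction to Flv, and kfl00041_0070 after it had 1.22 and 0.894 FPKM in high light, against 4.07 and 3.198 in low light (limma adjusted p = 0.13). The gene after APX, kfl00460_0020, had 21.6 and 28.9 FPKM in high light, against 15.5 and 16.1 in low light (limma adjusted p = 0.113). The genes before SOD and before MDAR are listed at 0 in all libraries. Whether reads were shared between neighbours was not tested.

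The gene nearest to SOD in level and pattern over the 4 libraries was kfl00409_0080, at a root mean square difference of 0.05 in log2(FPKM + 1), with 406 and 417 FPKM in high light, against 293 and 278 in low light. It was the only one of 10986 genes within 0.1 of SOD. APX, MDAR and Flv had 17, 13 and 13 genes within that distance. Genes are sparser at the level of SOD, with 184 within a factor of 1.5 in mean FPKM. For APX, MDAR and Flv these were 2596, 852 and 1359. The distance describes 4 libraries and carries no test.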
